A study of Rattus norvegicus with 9 samples.

Results

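Matrix metalloproteinases (MMPs) are zinc enzymes that cut collagens, elastin and other matrix proteins, and the tissue inhibitors of metalloproteinases (TIMPs) bind and block them. Most MMPs are secreted as inactive proenzymes, and a few stay in the cell membrane. In liver, activated stellate cells, macrophages, neutrophils and bile duct cells are known sources, and matrix builds up in fibrosis when deposition exceeds breakdown. The 10 genes described here are 7 proteinase genes (Mmp2, Mmp7, Mmp9, Mmp12, Mmp13, Mmp14 and Mmp23) and 3 inhibitor genes (Timp1, Timp2 and Timp3), chosen by name out of 32883 genes in the deposited table, where each has 1 identifier and is annotated as protein-coding.

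Liver RNA from 9 male Sprague-Dawley rats was sequenced, with 1 library per rat and 3 rats per group. Normal control rats (N1, N3 and N12, called normal rats) ate a normal diet without carcinogen. DEN model rats (M13, M17 and M24, called DEN rats) received 0.01% diethylnitrosamine (DEN), a liver carcinogen, by weekly intraperitoneal injection for up to 16 weeks. PZH administration rats (G27, G28 and G42, called PZH rats) received the same DEN and also Pien-Tze-Huang (PZH), a traditional Chinese patent drug. The study used a low and a high PZH dose and collected rats at several weeks, and which of these each sequenced rat had, and the age of the rats, are not given in the sources used here. The treatment label of the M rats also reads PZH, and they were taken as the DEN model because the letter of their names and the study's list of 3 rats per group place them there. No targeted gene exists in this design with which to check that assignment.

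Total counts per rat ran from 14922973 to 27161496, the deepest library being that of rat G27. Values per rat are CPM, reads scaled to a common library size, after TMM scaling, which adjusts library totals so that most genes are level between samples. A count of 3 corresponded to between 0.125 and 0.249 CPM, a floor that covers counting error only. Every fold change, standard error (SE) and adjusted p below is from the quasi-likelihood test of edgeR unless another tool is named, and a gene was called where the p, adjusted by Benjamini-Hochberg over all tested genes, was under 0.05. Without TMM the median of log2 fold changes over all genes moved from 0.03 to 0.89 between DEN and normal rats and from 0.01 to -0.67 between PZH and DEN rats. The share of higher genes among all called genes moved with it, from 55.3% to 89.5% and from 45.7% to 8.89%, so every direction below is relative to the TMM scaling.

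Marker levels of several cell types differed between the groups. Summed over 6 hepatocyte markers such as Alb and Ttr, the level was 115406 to 125360 CPM in normal rats, 18349 to 43033 CPM in DEN rats and 82035 to 126341 CPM in PZH rats. Alb averaged 94360 CPM in normal rats and made up most of this sum. Of the 6 markers, 4 were called lower in DEN rats and 3 higher after PZH. These markers of liver tissue were abundant in every group. Summed over 8 stellate cell and myofibroblast markers, the ranges were 142 to 180, 612 to 1726 and 291 to 346 CPM in the same order. Of these 8, 7 were called higher in DEN rats and 5 lower after PZH. All 6 cholangiocyte markers were called higher in DEN rats and all 6 lower after PZH, with ranges of 13.3 to 20.9, 236 to 759 and 82.0 to 107 CPM. Of all tested genes, 25.3% were called higher and 20.5% lower in DEN rats, and 8.72% higher and 10.3% lower after PZH. Krt7, a bile duct keratin, had at most 3 counts in any normal rat. The 6 neutrophil markers summed to 1.90 to 2.26, 15.5 to 31.9 and 4.80 to 5.54 CPM, and Elane, Cxcr2, Mpo and S100a8 did not exceed 3 counts in a normal rat. Marker sums of endothelial cells overlapped among all groups (331 to 409, 220 to 417 and 292 to 420 CPM), and those of T and B lymphocytes were 3.41 to 5.39, 6.86 to 35.5 and 2.19 to 6.35 CPM. In bulk tissue, fewer cells of a type and less RNA per cell cannot be told apart, and the part of these shifts in the results below was not tested.

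Most of the family was higher in DEN livers. Of the 10 genes, 8 had enough reads to be tested between DEN and normal rats, and 7 of these were called higher, namely Mmp2, Mmp9, Mmp12, Mmp23 and the 3 inhibitors. Among all 14255 genes tested in that comparison, 25.3% were called higher. The rats of the 2 groups did not overlap in those 7 genes, and 58.7% of all tested genes likewise did not overlap. For 3 of the 7, Mmp9, Mmp12 and Mmp23, at least 1 normal rat had under 10 reads, so that they passed the filter on low counts through the DEN rats and the count describes the genes without weighing the family against others. Mmp14, the main membrane-type enzyme, was the tested member that was not called, and Mmp7 and Mmp13 had too few reads to be tested. At the study's own thresholds, which ask for a log2 change beyond 2 in size with an unadjusted P below 0.001, 6 members passed, against 8.81% of all genes in the higher direction, and Timp3 was the gene that dropped out.

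**Figure D1:**
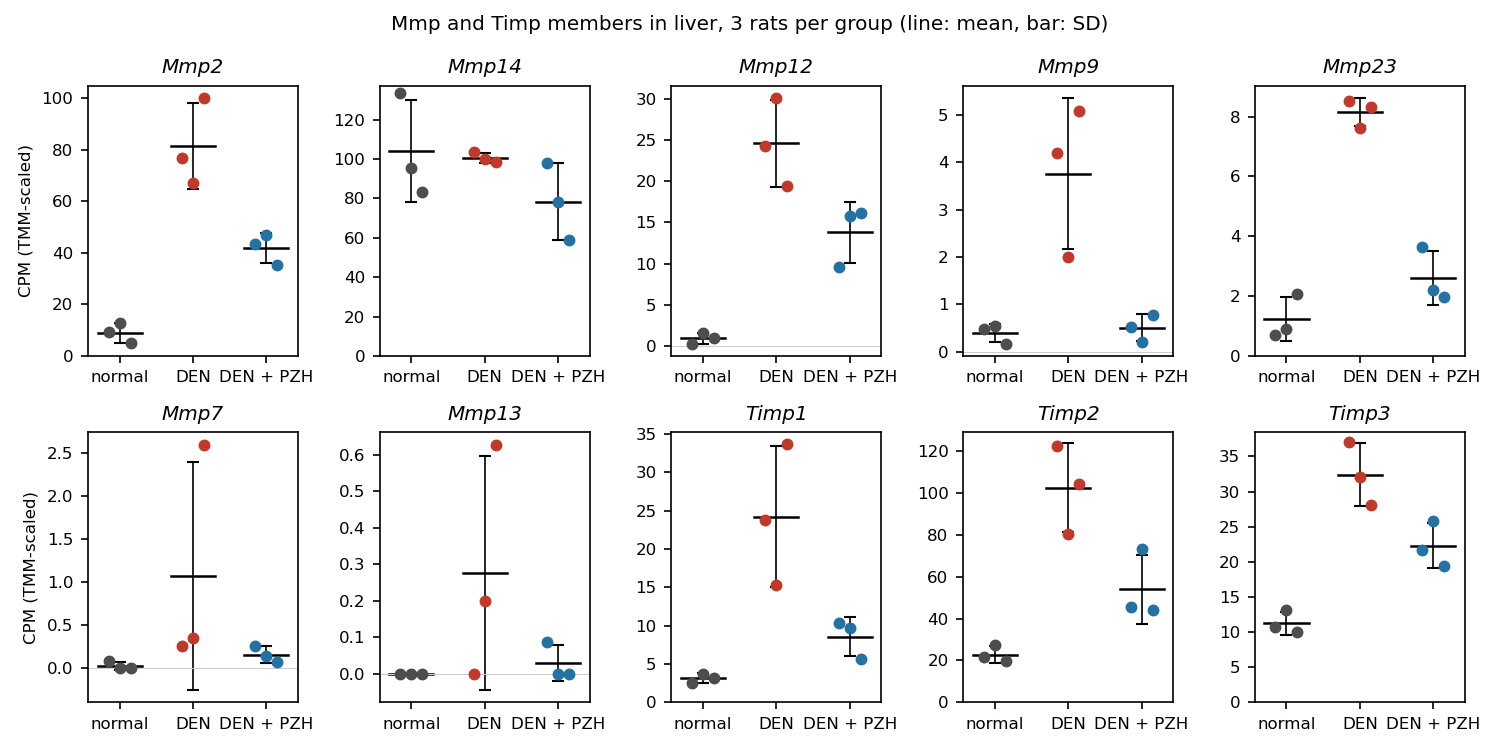
TMM-scaled CPM (linear vertical axes, 1 panel per gene) of the 10 genes in each rat, grouped as normal, DEN and PZH, with the group mean as a line and the SD as a bar (n = 3). Mmp12 lay between 0.233 and 1.52 CPM in normal rats and between 19.5 and 30.1 CPM in DEN rats, while Mmp14 of DEN rats lay within the normal range at this scaling and was 0.81 higher on the log2 scale when libraries were scaled by totals alone.

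Mmp2 encodes gelatinase A, which degrades type IV collagen and gelatin and is a product of activated stellate cells. It was at 9.41, 4.90 and 12.7 CPM in rats N1, N3 and N12, at 77.0, 67.3 and 100.015 CPM in rats M13, M17 and M24, and at 43.3, 46.8 and 35.4 CPM in rats G27, G28 and G42. The 3 groups lay apart, with every PZH rat between the normal and DEN rats. The log2 fold change was 3.18 in DEN rats (SE 0.33, adjusted p = 0.000291), a 9.04-fold rise. After PZH it was -0.93 (SE 0.21, adjusted p = 0.0228), and PZH rats remained 4.66-fold above normal rats (log2 fold change 2.22, adjusted p = 0.00729).

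Mmp9 encodes gelatinase B, which is made by neutrophils and macrophages. Its levels were 0.467, 0.166 and 0.532 CPM in rats N1, N3 and N12 and 4.19, 1.99 and 5.10 CPM in rats M13, M17 and M24. In rats G27, G28 and G42 they were 0.519, 0.207 and 0.776 CPM, which overlapped the normal rats. Mmp9 was 9.48-fold higher in DEN rats (log2 fold change 3.25, SE 0.56, adjusted p = 0.00234) and 7.27-fold lower after PZH (log2 fold change -2.86, SE 0.56, adjusted p = 0.0163). It was the member that passed the study's thresholds after PZH, where 1.35% of all tested genes did so in the lower direction. These levels rest on 2 to 7 reads in a normal rat and 3 to 12 reads in a PZH rat, and the gene was not tested between those groups. The neutrophil markers were also lowest in normal rats and highest in DEN rats.

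Mmp12, the macrophage elastase, had the largest fitted change of the tested members in DEN rats. Rats N1, N3 and N12 held 3, 11 and 20 reads of it, and rats M13, M17 and M24 held 568, 606 and 466. Scaled to CPM, the DEN rats were at 24.3, 30.1 and 19.5 CPM against 0.233, 0.914 and 1.52 CPM in normal rats, a 27.3-fold rise (log2 fold change 4.77, SE 0.48, adjusted p = 0.000250). In rats G27, G28 and G42 it was at 9.52, 15.7 and 16.2 CPM, all below the DEN rats and all above the normal rats. The log2 fold change after PZH of -0.81 was not called (95% interval -1.42 to -0.20, adjusted p = 0.0674), whereas DESeq2 gave -0.79 with an adjusted p of 0.0423. Against normal rats Mmp12 stayed 15.3-fold higher after PZH (log2 fold change 3.94, adjusted p = 0.00604). The 7 macrophage markers summed to 450 to 867 CPM in normal, 619 to 884 CPM in DEN and 270 to 618 CPM in PZH rats. In DEN rats 1 of them was called higher and 2 lower, beside 25.3% and 20.5% of all genes. After PZH 4 were called lower, beside 10.3% of all genes, with a median log2 fold change of -0.84.

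Mmp14 encodes a membrane-anchored enzyme that activates the Mmp2 proenzyme on the cell surface. It stood at 133, 83.4 and 95.6 CPM in rats N1, N3 and N12, at 103.6, 100.1 and 98.7 CPM in rats M13, M17 and M24, and at 97.9, 78.2 and 58.7 CPM in rats G27, G28 and G42. The DEN rats lay within the range of the normal rats. Its log2 fold change in DEN rats was -0.04 (95% interval -0.50 to 0.42, adjusted p = 0.883), and library totals in place of TMM turned it to 0.81 (adjusted p = 0.0147). Without rat N1, the highest normal rat, it was 0.15 and again not called. Every PZH rat lay below the DEN rats, rat G27 narrowly. After PZH the log2 fold change was -0.33 (95% interval -0.83 to 0.16, adjusted p = 0.309), and -1.02 with library totals (adjusted p = 0.00927).

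Mmp23 encodes a membrane-anchored proteinase whose prodomain lacks the usual cysteine switch. Its CPM was 0.7001, 2.08 and 0.911 in rats N1, N3 and N12, 8.51, 7.61 and 8.31 in rats M13, M17 and M24, and 3.63, 2.21 and 1.98 in rats G27, G28 and G42. The DEN rats stood clear of the other 6, and 1 normal rat (N3) overlapped PZH rats. The gene rose 6.61-fold in DEN rats (log2 fold change 2.73, SE 0.42, adjusted p = 0.00132) and fell 3.02-fold after PZH (log2 fold change -1.59, SE 0.30, adjusted p = 0.0152). Between PZH and normal rats the log2 fold change was 1.07 (95% interval -0.11 to 2.25), which was not called.

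Mmp7 and Mmp13 were near the limit of detection. Mmp7 encodes matrilysin, a small epithelial enzyme. It had 1, 0 and 0 reads in rats N1, N3 and N12, 6, 7 and 62 in rats M13, M17 and M24, and 6, 2 and 1 in rats G27, G28 and G42. Rat M24 supplied most of the 75 reads of DEN rats, and this rat also had the highest cholangiocyte marker sum (759 CPM). Rats M13 and M17, with 6 and 7 reads, had sums of 629 and 236 CPM. From the summed reads, the DEN level was 42.3 times that of normal rats, with a 95% counting interval of 7.37 to 1694. That interval covers counting error only and leaves out differences between rats. Without the filter on low counts the Mmp7 log2 fold change of 5.03 had an adjusted p of 0.0240. Mmp13, the main interstitial collagenase of rodents, had no read in any normal rat, which allows up to 0.237 CPM on average. It had 4 reads in rat M17, 15 in rat M24 and none in rat M13, and 2 reads in all among PZH rats. Mean Mmp13 of DEN rats was at least 1.16-fold higher than in normal rats, both groups held a rat at 0, and without the filter the difference was not called (adjusted p = 0.120).

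The 3 inhibitor genes rose together in DEN livers. Timp1, the inducible inhibitor often used as a marker of fibrosis, was at 2.49, 3.24 and 3.72 CPM in rats N1, N3 and N12, at 23.8, 15.3 and 33.6 CPM in rats M13, M17 and M24, and at 10.4, 9.67 and 5.72 CPM in rats G27, G28 and G42. No rat of 1 group reached the range of another. Timp1 rose 7.67-fold (log2 fold change 2.94, SE 0.34, adjusted p = 0.000400), fell 2.75-fold after PZH (log2 fold change -1.46, SE 0.34, adjusted p = 0.0249), and was still 2.71-fold above normal rats (adjusted p = 0.0402). Rat M24 had the highest Timp1 and Mmp2 and the highest stellate cell marker sum (1726 CPM), and rat M17 had the lowest of each among DEN rats.

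Timp2 encodes an inhibitor that also takes part in the activation of the Mmp2 proenzyme by the Mmp14 product. Its CPM was 21.5, 19.6 and 27.4 in rats N1, N3 and N12, 122.5, 80.4 and 104.2 in rats M13, M17 and M24, and 45.3, 73.0 and 43.9 in rats G27, G28 and G42. Rat G28 came close to rat M17, and the groups did not overlap. The gene was 4.48-fold higher in DEN rats (log2 fold change 2.16, adjusted p = 0.000258) and 1.85-fold lower after PZH (log2 fold change -0.89, SE 0.26, adjusted p = 0.0483). Against normal rats it stayed 2.36-fold higher after PZH (adjusted p = 0.0255).

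Timp3, the inhibitor that is held in the matrix, showed the smallest rise of the called members. It was at 10.7, 9.97 and 13.1 CPM in rats N1, N3 and N12, at 37.0, 32.0 and 28.1 CPM in rats M13, M17 and M24, and at 21.6, 25.8 and 19.5 CPM in rats G27, G28 and G42. The groups again did not overlap. Its rise was 2.87-fold (log2 fold change 1.52, SE 0.20, adjusted p = 0.000645). The log2 fold change after PZH was -0.51 and was not called (95% interval -0.94 to -0.07, adjusted p = 0.0964), and PZH rats stood 1.97-fold above normal rats (adjusted p = 0.0376).

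After PZH, 5 of the 8 tested members were called lower (Mmp2, Mmp9, Mmp23, Timp1 and Timp2), where 10.3% of 14272 tested genes were. Of the 5, Mmp9 had 3 reads in rat G28 and passed the filter on low counts through the DEN rats, so the count is a description. The fitted log2 fold change was below 0 in each of the 8. PZH and DEN rats stood apart in all 8 members, and also in 41.1% of all tested genes. The count of 5 rested on few rats. In edgeR's test it was 2 without rat G28 and 2 without rat G42, and 0 without rat M13 or without rat M24, where 6 and 7 members had an unadjusted p under 0.05 and were lower. The calls over all genes fell likewise, from 1477 lower genes to 152 without rat M13 and 449 without rat M24. With library totals all 8 were called lower, as were 5696 of all 14272 genes. The comparison of PZH with DEN rats and that of DEN with normal rats share the 3 DEN rats, so their values are side by side here and are not independent.

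Livers of PZH rats still differed from normal livers in this family. Mmp2, Mmp12, Timp1, Timp2 and Timp3 were called higher than in normal rats, 5 of 7 tested members, where 4.07% of 13348 tested genes were. Of these 5, Mmp12 had 3 reads in rat N1 and passed the filter on low counts through the PZH rats, so the counts here are descriptions. Mmp2 and Mmp12 also passed the study's thresholds, as 2.16% of all genes did in that direction. The rats of the 2 groups did not overlap in these 5, and 24.0% of all tested genes likewise did not overlap. The number fell to 2, Mmp2 and Mmp12, without rat G28, N1, N3 or N12, each left out in turn.

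**Figure D2:**
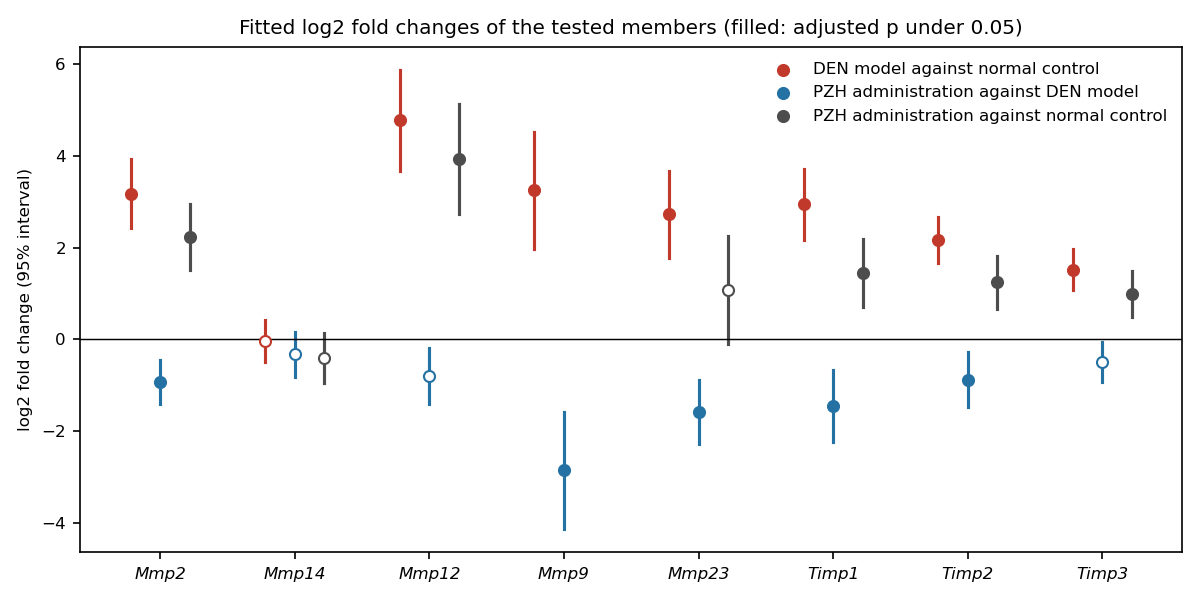
Log2 fold changes (vertical axis) of the 8 members tested in at least 1 comparison, with 95% intervals as lines and filled points where the adjusted p was under 0.05. DEN against normal is positive for 7 members, PZH against DEN is negative for all 8, and Mmp14 sits near 0 with TMM scaling, where library totals put it at 0.81 in DEN rats.

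Within each rat the genes can be compared per length of transcript with the deposited FPKM values (fragments scaled for transcript length and library total), which carry no TMM scaling. Mmp14 made up 90.8% ± 3.07 (SD, n = 3) of the summed FPKM of the 7 proteinase genes in normal rats, 47.1% ± 2.75 in DEN rats and 57.7% ± 6.45 in PZH rats. The share of Mmp2 went the other way, at 6.24% ± 2.62, 29.98% ± 4.83 and 24.8% ± 1.91 (SD, n = 3 each). Mmp12 took 1.16% ± 0.853, 15.7% ± 4.04 and 14.5% ± 5.57, with ranges of 8.59% to 19.6% in PZH and 11.8% to 19.9% in DEN rats, which overlapped although rat G27 lay below every DEN rat. A share within a rat does not depend on the scaling between libraries.

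By mean FPKM the order among the members in normal livers began with Mmp14 (33.5 ± 9.36), Timp2 (10.8 ± 2.29), Timp3 (5.05 ± 0.919), Timp1 (3.32 ± 0.680) and Mmp2 (2.31 ± 1.07), with SD over 3 rats. The ranges of Timp1 and Mmp2 overlapped between rats, but this order held within each of the 3 rats. Mmp19, a family gene outside the members, was at 20.0 to 25.7 FPKM in normal rats, above Timp2 in each. Among the members in DEN livers Timp2 came first (88.6 ± 26.6), followed by Mmp14 (58.7 ± 7.84), Timp1 (47.9 ± 23.2), Mmp2 (38.2 ± 12.3), Timp3 (26.2 ± 4.66) and Mmp12 (19.1 ± 1.81). Between rats the ranges of all these neighbours overlapped except those of Timp3 and Mmp12. Within a rat, Timp2 exceeded Mmp14, Mmp2 exceeded Timp3 and Timp3 exceeded Mmp12 in 3 of 3 DEN rats, while Mmp14 exceeded Timp1, and Timp1 exceeded Mmp2, in 2 of 3. With 3 rats these orders were not tested. After PZH, Timp2 (29.8 ± 9.87) and Mmp14 (29.0 ± 5.72) changed places between rats, and Mmp2, Timp3 and Timp1 lay between 10.5 and 12.4 FPKM on average.

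The balance of inhibitor to proteinase transcripts was also compared within rats. The summed FPKM of the 3 Timp genes was 0.384, 0.584 and 0.648 times that of the 7 Mmp genes in rats N1, N3 and N12, 1.46, 1.03 and 1.35 times in rats M13, M17 and M24, and 0.867, 1.25 and 0.985 times in rats G27, G28 and G42. Every DEN and PZH rat was above every normal rat. The mean log2 ratio was 1.27 higher in the DEN than in normal rats and 0.96 higher in PZH than in normal rats (exact two-sided permutation test, p = 0.1 each, the smallest p that 3 rats against 3 allow). Between PZH and DEN rats it differed by -0.31 with overlapping groups (exact permutation test, p = 0.2). Among the 7 Mmp genes summed, the ratio rested on Mmp14. Without Mmp14 the difference turned to -1.31 between DEN and normal rats and to -1.28 between PZH and normal rats. The other proteinases of that sum had together risen more than the inhibitors. Mmp15 and Mmp19 were outside the sum, and each exceeded every summed proteinase but Mmp14 in each normal rat. Mean Mmp15 was 8.36 FPKM in normal and 28.2 FPKM in DEN rats. Mmp19 was at 20.0 to 25.7 FPKM in normal and 22.9 to 32.8 FPKM in DEN rats. These FPKM values carry no TMM scaling. In TMM-scaled CPM Mmp15 ran from 30.6 to 57.6 in normal and 66.4 to 99.3 in DEN rats. Mmp19 ran from 54.4 to 64.5 and from 29.3 to 54.5 in the same order. The summed Timp FPKM was 16.2 to 23.3 in normal and 105.5 to 194.9 in DEN rats. The turn without Mmp14 describes the 7 summed genes only, and a ratio with Mmp15 and Mmp19 in the sum was not tested.

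**Figure D3:**
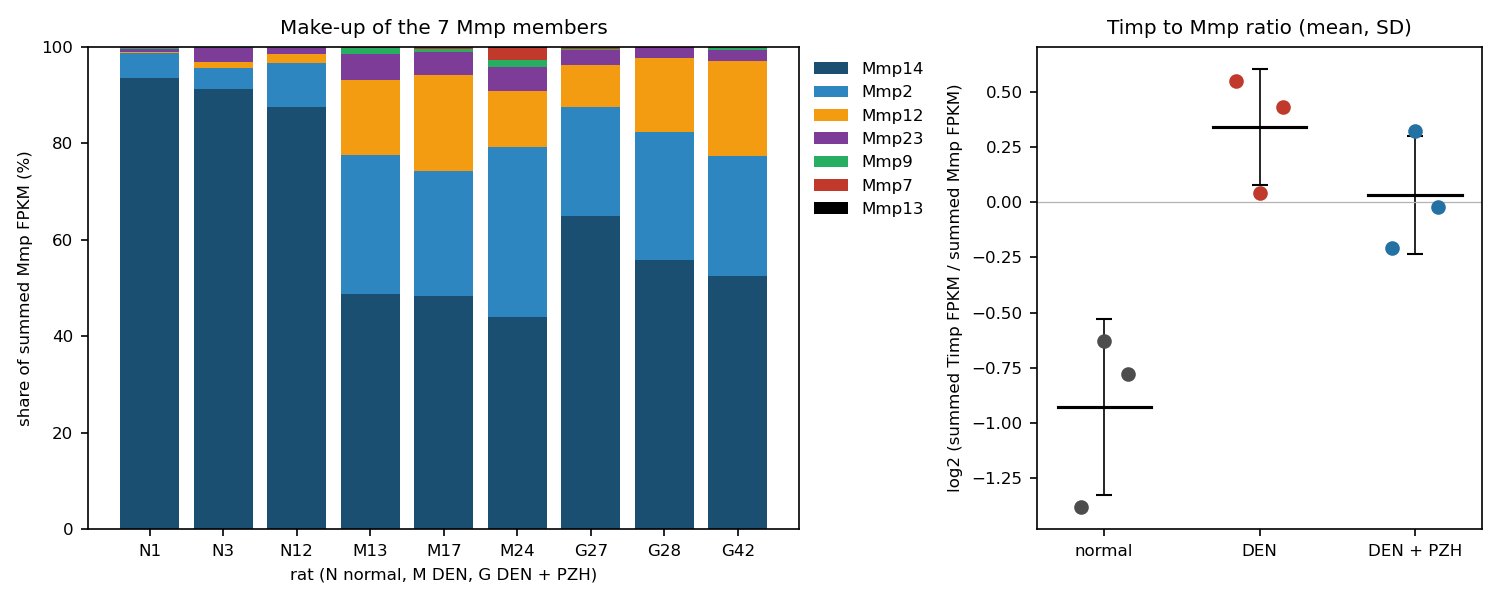
Left, the share of each of the 7 proteinase genes in their summed FPKM (percent, stacked bars) in each rat. Right, the log2 ratio of summed Timp FPKM to the summed FPKM of the same 7 genes by group (points are rats, line and bar are mean and SD, n = 3). Mmp14 fell from 90.8% to 47.1% of the sum between normal and DEN rats, and the ratio was higher in each DEN-treated rat than in each normal rat. For these 7 genes that direction turned without Mmp14 (to -1.31 for DEN and -1.28 for PZH against normal rats).

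Mmp13, Mmp12 and Mmp7 are neighbours. In the coordinates of the authors' file, whose genome build is not given in the sources used here, Mmp13 (5522739 to 5533018), Mmp12 (5606592 to 5616493) and Mmp7 (5893249 to 5901049) lie on chromosome 8 within a run of 10 Mmp genes spanning 378311 bases. Reads in this run were unevenly spread. Mmp12 had 1640 reads in the 3 DEN rats, Mmp8, the neutrophil collagenase, had 248, Mmp20 had 94 and Mmp7 had 75, while Mmp13, Mmp27, Mmp1, Mmp3 and Mmp10 had between 4 and 19 and Mmp1b had none. In normal rats Mmp12 had 34 reads, Mmp8 19, Mmp3 6 and the remaining 7 genes at most 1. The other members are dispersed, with Mmp2 on chromosome 19, Mmp9 on 3, Mmp14 on 15, Mmp23 on 5, Timp1 on X, Timp2 on 10 and Timp3 on 7.

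**Figure D4:**
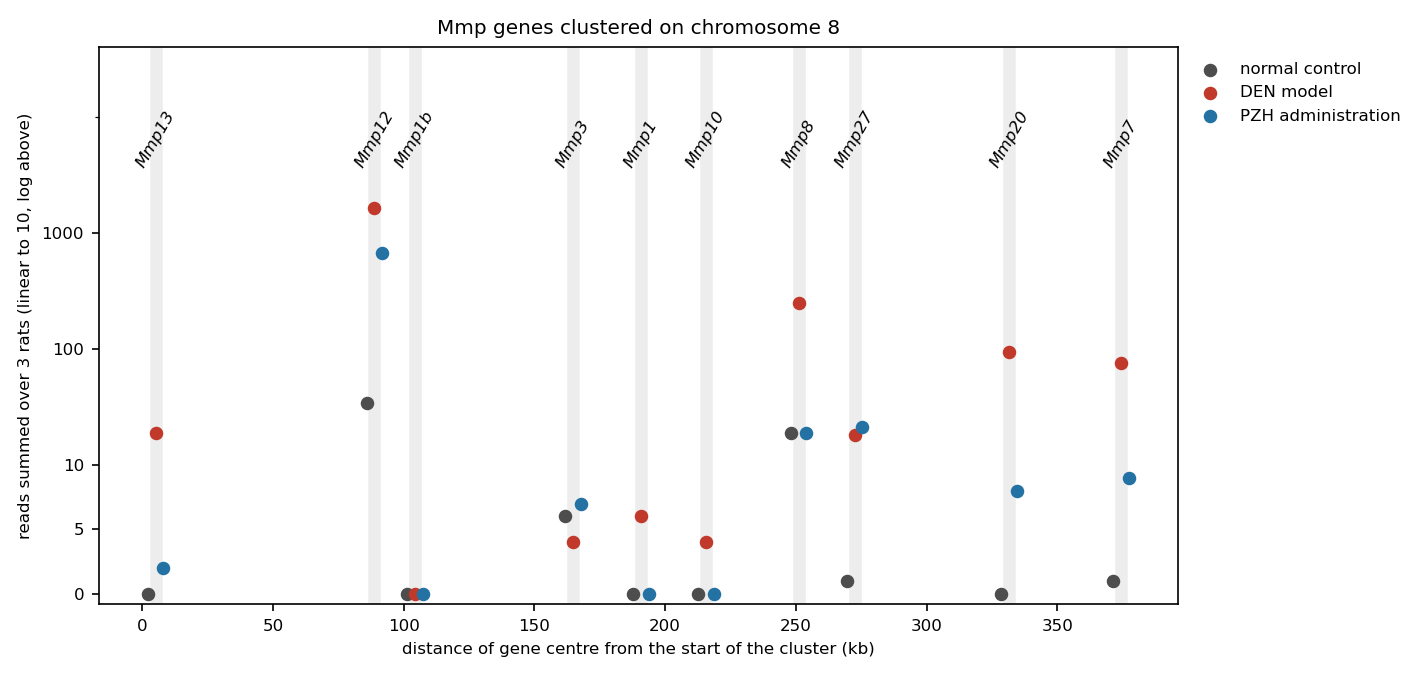
Reads summed over the 3 rats of each group (vertical axis, linear to 10 and logarithmic above) for the 10 clustered Mmp genes, by distance of the gene centre from the start of the cluster in kb. Mmp12 had 34, 1640 and 677 reads in normal, DEN and PZH rats, whereas Mmp1b had none in any rat.

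RefSeq promoter sequences of build GRCr8 were matched by symbol for 7 of the 10 members (Mmp7, Mmp12, Mmp13, Mmp23, Timp1, Timp2 and Timp3). The 250 bases before the start of the 3 clustered genes and of Timp1 are shown because Mmp12 and Timp1 had large changes and the clustered genes can be compared with each other. Capitals mark matches on either strand to the AP-1 motif TGANTCA, its variant TGAGTAA, the ETS motif AGGAAG, the TATA motif TATAAA and the GC box GGGCGG, none of which overlap here. The windows are chr8:13132793-13133042 (plus strand), chr8:12866402-12866651 (plus strand), chr8:12782579-12782828 (plus strand) and chrX:3771123-3771372 (minus strand), each written 5′ to 3′.
Mmp7: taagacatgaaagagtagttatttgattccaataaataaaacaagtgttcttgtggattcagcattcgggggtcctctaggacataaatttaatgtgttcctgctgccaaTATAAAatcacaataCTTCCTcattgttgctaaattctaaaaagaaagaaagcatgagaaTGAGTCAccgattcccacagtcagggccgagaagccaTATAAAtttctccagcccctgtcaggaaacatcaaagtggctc
Mmp12: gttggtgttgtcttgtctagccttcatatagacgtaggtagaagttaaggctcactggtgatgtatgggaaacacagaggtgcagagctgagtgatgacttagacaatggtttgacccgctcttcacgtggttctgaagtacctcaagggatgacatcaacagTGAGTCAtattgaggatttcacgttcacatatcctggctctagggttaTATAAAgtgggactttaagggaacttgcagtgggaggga
Mmp13: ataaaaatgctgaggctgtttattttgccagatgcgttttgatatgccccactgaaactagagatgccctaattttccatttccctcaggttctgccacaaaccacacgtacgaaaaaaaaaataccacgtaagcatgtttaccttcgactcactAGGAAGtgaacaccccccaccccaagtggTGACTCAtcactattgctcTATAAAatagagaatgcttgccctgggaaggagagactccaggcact
Timp1: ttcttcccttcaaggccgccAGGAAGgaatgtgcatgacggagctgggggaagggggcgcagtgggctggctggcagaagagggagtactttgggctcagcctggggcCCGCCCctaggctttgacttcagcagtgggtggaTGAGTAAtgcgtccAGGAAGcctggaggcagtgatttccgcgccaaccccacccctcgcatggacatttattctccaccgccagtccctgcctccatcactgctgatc
Each of the 3 clustered genes had 1 match to TGANTCA, starting 80, 87 and 66 bases before the start of Mmp7, Mmp12 and Mmp13, and a TATAAA at 43, 39 and 47 bases. Of 33469 promoter windows of the same length, 6.34% held TGANTCA and 12.9% held TATAAA. Mmp7 had a further TATAAA at 140 bases and an ETS match at 125 bases, and Mmp13 an ETS match at 95 bases. Timp1 had the variant TGAGTAA at 108 bases, which 2.38% of windows held, AGGAAG at 230 and 94 bases, which 29.5% held, and a GC box at 142 bases. Mmp23, Timp2 and Timp3 matched the GC box alone of these motifs, as 30.5% of windows did. The matches are descriptions of letters. Mmp12 was abundantly read and Mmp13 scarcely read in DEN livers, and both windows hold TGANTCA and TATAAA.

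The rest of the MMP and TIMP family was looked up by a list of 16 further genes, 15 of which are in the table and 10 of which were tested. In DEN rats 7 were called higher and 1 lower, where 25.3% and 20.5% of all genes were. Of the 7, Mmp8, Mmp11, Mmp20, Mmp28 and Timp4 had a normal rat under 10 reads and were tested through the DEN rats' reads, so the count is a description. The median log2 fold change was 2.43, or 1.65 with Mmp20 and Timp4 at the lower bounds given next. Mmp20, known as an enamel enzyme, had no read in normal rats and 36, 21 and 37 in rats M13, M17 and M24, at least 5.81-fold higher. Timp4 likewise had none and then 18, 11 and 10 in the same rats, at least 2.44-fold higher. Mmp28 had 1 to 3 reads in a normal rat and 19 to 99 in a DEN rat, and its log2 fold change of 4.29 (adjusted p = 0.00284) again rests on a filter passed through the DEN rats. Mmp16 was the gene called lower (log2 fold change -1.17, adjusted p = 0.0348), and with library totals it was not called. After PZH, where 8.72% of all genes were called higher and 10.3% lower, 2 of the 10 were called lower, Mmp8 (log2 fold change -3.17, adjusted p = 0.0245) and Mmp20 (-3.14, adjusted p = 0.0155), both with a PZH rat under 10 reads, and the median was -0.87. With library totals 6 were called lower, beside 5696 of all 14272 genes. Mmp8 was at 6.93, 2.34 and 1.63 CPM in rats M13, M17 and M24 and at 0.173, 0.345 and 0.706 CPM in rats G27, G28 and G42, with no overlap, as the neutrophil marker sums were also apart between these groups.

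The ADAM and ADAMTS families are related metalloproteinases, some of which shed membrane proteins or process matrix. Of 25 tested genes 14 were called higher and 1 lower in DEN rats (median log2 fold change 1.41), beside 25.3% and 20.5% of all genes, and 6 of the 14 had a normal rat under 10 reads. Of 24 tested after PZH 11 were called lower (median -0.84), beside 10.3% of all genes. Of the 11, 3 (Adamts14, Adam12 and Adamts8) had a PZH rat under 10 reads, so the count is a description. With library totals 19 were called higher in DEN rats, beside 8126 of all 14255 genes, and 18 lower after PZH, beside 5696 of 14272. Adam8, a leukocyte proteinase, rose by 5.56 on the log2 scale (adjusted p = 1.96e-05), from 0.447 ± 0.119 to 21.3 ± 2.25 CPM (SD, n = 3). Adamts2, which trims the amino end of procollagens, rose from 4.78 ± 1.87 to 117 ± 43.1 CPM (SD, n = 3) and was at 29.7 ± 3.90 CPM after PZH (log2 fold change -1.94, adjusted p = 0.0101). Adamts8 was at 4.67 ± 1.94 CPM in DEN rats and 0.953 ± 0.468 CPM after PZH (SD, n = 3, log2 fold change -2.24, adjusted p = 0.0238), and Adam12 at 3.73 ± 1.56 and 0.750 ± 0.514 CPM (log2 fold change -2.22, adjusted p = 0.0297). Adamts16 had no read in normal rats and 12 to 14 in a DEN rat, at least 2.53-fold higher.

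Genes that activate, bind or otherwise inhibit MMPs were called in both directions. In DEN rats 17 of 34 tested genes were called higher and 9 lower (median log2 fold change 1.11), beside 25.3% and 20.5% of all genes, and after PZH 5 of 33 were called higher and 10 lower (median -0.14), beside 8.72% and 10.3%. With library totals the DEN counts became 23 higher and 7 lower, beside 8126 and 958 of all 14255 genes. The counts after PZH became 3 higher and 18 lower, beside 556 and 5696 of 14272. In DEN rats 3 of the 17 called higher had a normal rat under 10 reads, and 1 of the 9 called lower had a DEN rat under 10. Lcn2, whose product forms a complex with gelatinase B, rose from 1.56 ± 0.559 to 71.7 ± 16.0 CPM and was at 10.8 ± 3.10 CPM after PZH (SD, n = 3), with log2 fold changes of 5.51 (adjusted p = 2.10e-05) and -2.71 (adjusted p = 0.00513). A2m, a broad proteinase inhibitor of plasma, rose by 4.58 on the log2 scale (adjusted p = 0.000417). It was not called after PZH (0.85, adjusted p = 0.306), at 49.9 ± 29.2 CPM in DEN and 87.8 ± 45.3 CPM in PZH rats (SD, n = 3). Cd44, a hyaluronan receptor that docks gelatinase B, had log2 fold changes of 4.33 (adjusted p = 0.000107) and -2.33 (adjusted p = 0.00919). The proteases Plat, a plasminogen activator, and St14, matriptase, fell by 2.48 (adjusted p = 0.0152) and 2.38 (adjusted p = 0.00899) on the log2 scale after PZH.

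Most matrix substrates on the list were called higher in DEN livers. Of 34 tested genes 29 were called higher and 2 lower in DEN rats (median log2 fold change 2.75), beside 25.3% and 20.5% of all genes, and 6 of the 29 had a normal rat under 10 reads. After PZH 22 were called lower, with a median of -1.39, beside 10.3% of all genes. Of the 22, 4 (Lum, Lama1, Tnc and Col15a1) had a PZH rat under 10 reads. Against normal rats 17 of 31 genes were still called higher after PZH, with a median of 1.23, where 4.07% of all genes were. Of the 17, 2 had a normal rat under 10 reads. Col15a1, a basement membrane collagen, had 3 reads in all normal rats together and 922 in DEN rats, a ratio of 173 with a 95% counting interval of 59.2 to 843. That interval covers counting error only and leaves out differences between rats. Vcan, the proteoglycan versican, had log2 fold changes of 6.49 (adjusted p = 0.00160) and -3.02 (adjusted p = 0.0325), and Tnc, tenascin C, fell by 4.61 (adjusted p = 0.0450) after PZH from levels that ran from 1.89 to 65.2 CPM among DEN rats. Lama1 had no read in normal rats and was at least 3.73-fold higher in DEN rats.

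Known inducers of MMP genes held calls in both directions. Of 24 tested cytokines, growth factors and transcription factors, 12 were called higher and 3 lower in DEN rats (median log2 fold change 0.89), beside 25.3% and 20.5% of all genes. After PZH 3 of 23 were called higher and 8 lower (median -0.69), beside 8.72% and 10.3%. Library totals made these 2 higher and 15 lower, beside 556 and 5696 of all 14272 genes. Of the 12 called higher in DEN rats 2 had a normal rat under 10 reads. Of the 8 called lower after PZH 1 (Etv4) had a PZH rat under 10 reads. Etv4, an ETS-family factor, had log2 fold changes of 5.56 (adjusted p = 0.00197) and -4.22 (adjusted p = 0.0126), from 5.27 ± 4.30 CPM in DEN rats to 0.272 ± 0.0676 CPM after PZH (SD, n = 3). Tgfb2 rose by 2.79 (adjusted p = 0.00110) in DEN rats, and Runx1, a transcription factor, fell by 2.17 (adjusted p = 0.0116) after PZH. Egf, the epidermal growth factor, ran the other way, with -3.24 (adjusted p = 0.000505) and 3.10 (adjusted p = 0.00893).

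**Figure D5:**
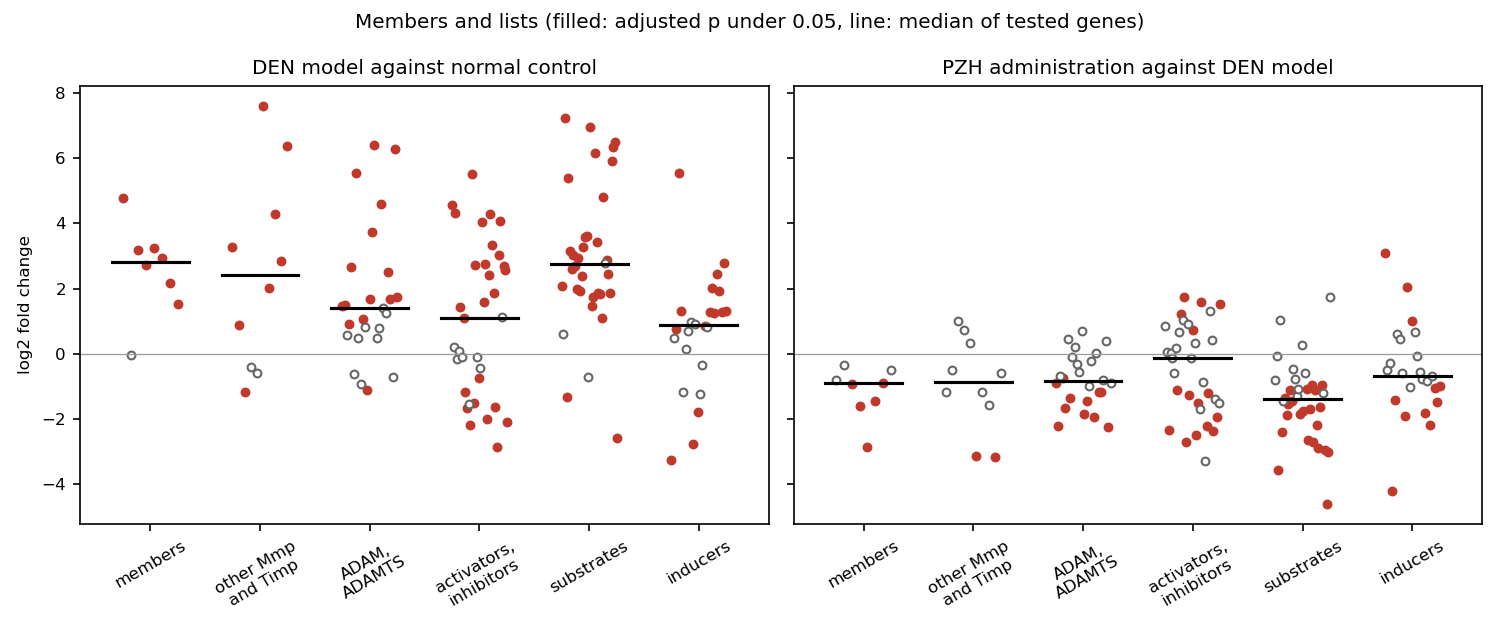
Log2 fold changes (vertical axis) of the tested members and of the genes of 5 lists, for DEN against normal (left) and PZH against DEN (right); filled points had an adjusted p under 0.05 and lines are medians of the tested genes. The medians on the left run from 0.89 for inducers to 2.83 for the members, and on the right from -1.39 for substrates to -0.14 for activators and other inhibitors.

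The genes most like each member in pattern were found by the root mean square difference of centred log2(CPM + 1) values over the 9 rats, among 11766 named genes tested in every comparison. Cygb, a globin of stellate cells, and Itgax, a leukocyte integrin, were closest to Mmp2 (0.226 and 0.236, where the median gene was at 1.38). Clec10a, a macrophage lectin, and the replication gene Mcm5 were closest to Timp1 (0.208 and 0.214). Igfbp7, a matrix-associated binding protein, and Emp2 were closest to Timp2 (0.132 and 0.138), and Daam2 and Lrrk1 to Timp3 (0.116 and 0.136). Mmp12 lay nearest to Nqo1, an antioxidant enzyme, and Mki67, a marker of dividing cells (0.336 and 0.362), at a wider distance than the inhibitors had from their neighbours. Mmp23 lay nearest to N4bp3 and Ttc12 (0.226 and 0.268), and Mmp14 to Mllt1 and Apex1 (0.0874 and 0.0990, against a median of 0.489). These distances are descriptions over rats of 3 groups.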

How the data were processed

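Total liver RNA of 9 rats was measured by sequencing. Per the submitters' processing notes, fastp, HISAT2 2.1.0, StringTie 1.3.3b and edgeR 3.30.3 were used, with roles not given; the genome build is not given in the sources used here. The authors deposited raw read counts per gene and rat, which were not normalized, and FPKM values, which the authors had divided by transcript length and library total. The authors' own group means, fold changes, P-values and Q-values in the table were not used. FPKM was used for shares, ratios and the order of genes within a rat, and its mean and SD over the rats of a group are given as a description.

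The deposited counts were analysed with edgeR 4.0.16 under R 4.3.3. Of the list genes, 7 were not found by symbol. Genes were kept by filterByExpr, scaled by TMM and tested (glmQLFit, glmQLFTest) with both groups of a comparison in the fit, 6 rats and no covariate, with Benjamini-Hochberg adjustment over all genes tested. Standard errors were derived from the F statistic. Levels per rat are CPM from TMM factors of all 9 libraries. Each library came from a different rat. The fit was tested on simulated counts. Among 100 genes given a simulated log2 change of 3, 93 were recovered for DEN model against normal control (14255 genes) and 95 for PZH administration against DEN model (14272 genes), but of 50 changed by 1 only 9 and 5. Fewer genes were changed in the simulation than were called in these data, so its recovery does not give the power here. Total counts of 14922973 to 27161496 per rat limit the precision of low genes.

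Alternatives were DESeq2 1.42.0, library totals, no filter, a minimum of 10 counts in each rat, one fit of all groups, the study's thresholds, and each rat left out. The members and gene lists were chosen with earlier results of these data known, and the promoter motifs with the sequences in view. All 10 members were named; from each list, the 3 genes with the largest absolute log2 fold change among those called in the DEN model comparison and in the PZH comparison; and for each member tested in every comparison, the 2 genes closest in pattern. Krt7, Elane, Cxcr2, Mpo, S100a8, Mmp16 and the clustered Mmp genes were named after their values were seen.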

Additional observations from a re-analysis of the deposited data

How the results depend on the processing

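Across the alternatives that keep every rat, 118 member log2 fold changes kept their direction and their call, 8 lost a call and 4 gained one. With at least 10 counts in every rat, 5 members were tested between DEN and normal rats and 4 were called higher, fewer because fewer were tested, and Mmp14 turned to 0.062. Library totals turned Mmp14 to 0.81 in that comparison and gave 8 members called lower after PZH, where 5696 of all 14272 genes were. The study's thresholds left 1 member lower after PZH and 2 higher than in normal control rats after PZH. Leaving out 1 rat gave 7 to 7 members called higher in the DEN model group, 0 to 5 called lower after PZH and 2 to 4 called higher in PZH administration than in normal control rats, and the Mmp14 log2 fold change in DEN rats ran from -0.18 to 0.15, above 0 without rat N1. Of the member log2 fold changes, 31 lost a call when a rat was left out, with fewer rats in each fit.

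The difference in the log2 Timp to Mmp ratio, summed over the members only, between DEN model and normal control rats was 1.69 without Mmp2 and -1.31 without Mmp14. Without Mmp14 it was 0.026 between PZH administration and DEN model rats and -1.28 between PZH administration and normal control rats. The cause was not tested. Leaving out 1 rat gave 1.04 to 1.42, -0.46 to -0.19 and 0.73 to 1.11 for the 3 comparisons. No paired analysis was possible because the groups share no rat numbers. With 3 rats in a group, low reads limit Mmp7, Mmp9 and Mmp13. In the simulation most log2 changes of 1 were missed, but fewer genes changed there than were called in these data. Among the members after PZH, Mmp2 (1.90-fold) and Timp2 (1.85-fold) were called and Mmp12 (1.75-fold) was not.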
